A study of Mus musculus with 6 samples.

Results

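The genes described here are those that encode the proteasome. They comprise the 45 protein-coding mouse genes whose symbol is Psma, Psmb, Psmc, Psmd or Psme followed by a digit, of 55487 genes in the deposited table. Membership rested on symbols alone and used no measured value, though the family was chosen with earlier results of these data known. By class the members are 19 genes of the core particle (Psma and Psmb), 17 of the regulatory particle (6 Psmc and 11 Psmd genes), 5 activator genes (Psme) and 3 assembly chaperones that carry Psmd symbols. The remaining match, Psmc3ip, encodes a partner of meiotic recombination proteins, is no part of the proteasome; it stays in the counts of members and is described apart.

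RNA was sequenced from 6 libraries of mouse oocytes, 3 labelled metformin and 3 labelled control. The series title names aged mice, while the sample labels give no age, strain or genotype. All donors were primed with 10 IU of PMSG, a gonadotropin that drives follicle growth, and oocytes were taken 46 to 48 h later. In both groups the cumulus cells were removed and the oocytes were cultured for 16 h to metaphase II, with metformin in the medium of the treated group. Concentrations of 10, 20 and 50 μM metformin are listed for culture, and that of the sequenced oocytes is not stated. Metformin is a biguanide drug used against type 2 diabetes. The labels do not state how many oocytes entered a library or whether the libraries came from separate animals or pools, so a p-value here is set against the spread of the samples given, part of which may be technical.

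The proteasome is a barrel-shaped protease that degrades proteins tagged with ubiquitin. Its core particle stacks outer rings of alpha subunits, which gate the barrel, on inner rings of beta subunits, of which Psmb5, Psmb6 and Psmb7 carry the proteolytic sites. The regulatory particle caps the barrel: its base holds a ring of ATPases (Psmc) that unfold the substrate, and its non-ATPase subunits (Psmd) bind ubiquitin and remove it. In oocytes, proteasomal destruction of cyclin B and securin lets the first meiotic division proceed, and a fully grown oocyte carries out maturation on stored transcripts with little new transcription.

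Depth was similar in the groups, with 9914600 to 10588292 counts per metformin library and 8622281 to 10113655 per control library. A floor of 3 counts corresponded to 0.285 to 0.338 CPM (counts divided by the TMM-scaled depth of the library, which evens out most genes between libraries). All 10 oocyte markers were detected, with summed levels of 25826 to 34809 CPM in metformin libraries and 27989 to 30251 CPM in control libraries. The 10 markers of cumulus and granulosa cells summed to 54.5 to 66.1 CPM in metformin libraries and 58.4 to 60.5 CPM in control libraries, with Amh, Foxl2 and Ptx3 at 0 counts. Most of that sum was Cyp19a1 (35.9 to 47.9 CPM over the 6 libraries) and Nr5a2 (16.1 to 21.2 CPM). The 11 blood and immune markers summed to 24.7 to 53.0 CPM in metformin libraries and 38.6 to 70.8 CPM in control libraries, with Adgre1 and Cd3e at 0 counts. H2-Aa made up most of that sum, with 22.1, 49.0 and 50.8 CPM in metformin libraries, against 37.1, 36.2 and 39.4 CPM in controls. Control replicate 1 also had 13.5 CPM of Hba-a1 and 7.34 CPM of Hbb-bt, which were at or near 0 elsewhere. The 7 stroma and endothelium markers summed to 30.8 to 42.3 CPM in metformin libraries and 34.4 to 39.9 CPM in controls, mostly from Pecam1. In bulk libraries of this kind, fewer cells of a type and less RNA per cell cannot be told apart.

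No proteasome gene passed the test of metformin against control oocytes. Of the 45 members, 36 had enough counts to be tested; Psma8, Psmb8, Psmb9, Psmb10, Psmb11, Psmd13, Psme1, Psme2 and Psme2b did not. Of the 36, 0 passed an adjusted p of 0.05 in edgeR's quasi-likelihood test with Benjamini-Hochberg adjustment over 12793 genes, where 5 genes passed in all (0.0391%). At an unadjusted p under 0.05 edgeR gave 0 members, against 192 genes in all (1.5%), and DESeq2 called 0 members at an adjusted p of 0.05, against 9 of 12782 genes in all (0.0704%). The fitted log2 fold changes of metformin over control ran from -0.33 to 0.16 with a median of -0.01, beside a median of 0.01 over all genes tested. Metformin was fitted higher for 15 members and lower for 21, where 52.5% of all genes tested were fitted higher. In CPM, the groups did not overlap for 1 of the 36 tested members, Psma3, with metformin lower. Over all genes tested, 5.63% had no overlap, 2.84% with metformin higher and 2.79% with metformin lower.

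The members were measured more tightly than most genes. Their median standard error (SE) on the log2 scale was 0.170, against 0.239 for all genes tested. The 95% interval of the fold change lay inside a 2-fold change either way for 35 of the 36 tested members and inside a 1.5-fold change for 28. Over all genes tested, 76.0% lay inside 2-fold and 40.3% inside 1.5-fold. Every adjusted p of a tested member was 1.00 in edgeR's test, and that value is not repeated below.

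**Figure D1:**
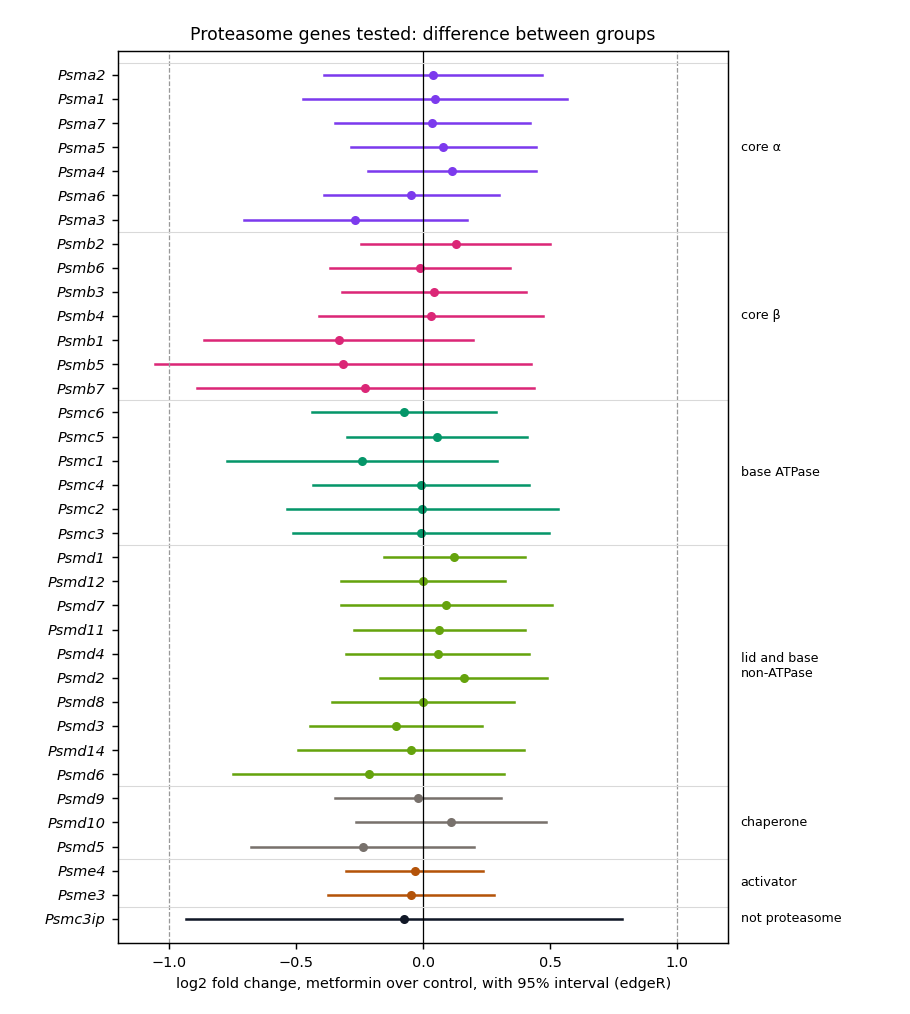
Log2 fold change of metformin over control (horizontal axis) for each of the 36 tested members, grouped by class down the page. Points are edgeR's estimates and bars their 95% intervals; estimates run from -0.33 to 0.16, every interval includes 0, and that of Psmb5 is the one that reaches past a 2-fold change.

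Levels are given as the deposited FPKM (counts scaled for the length of the gene and the depth of the library), which allow a rough comparison of genes. The length in that unit was recovered by dividing counts by FPKM. For 4184 of 4311 well-counted genes (97.05%) it equalled, within 1 base, the summed lengths of all annotated exons of the gene, with overlapping exons of different transcripts each counted in full. For the 45 members this length was 1.00 to 5.89 times that of the main transcript, with a median of 2.73. It is the same in all libraries and cancels in a comparison of metformin with control. However, it lowers the FPKM of genes with many annotated transcripts. The order of genes in FPKM can therefore differ from that in CPM per kilobase of the main transcript. The latter is given for the ends of the alpha, beta and ATPase rings, the top non-ATPase subunit, the particle sums and some other members.

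Among the alpha subunits of the core particle, Psma2 (ENSMUSG00000015671, chromosome 13, 14613240 to 14674236, GRCm38) stood at the top. It had 314, 402 and 483 FPKM in metformin oocytes, against 365, 393 and 430 FPKM in control oocytes. Metformin replicate 1 was the lowest and metformin replicate 3 the highest of the 6 libraries, and the groups overlapped. The means were 400 ± 84.4 FPKM with metformin and 396 ± 32.6 FPKM in controls (SD, n = 3 each), a log2 fold change of 0.04 (SE 0.195). By mean FPKM it ranked 132 among the 12793 genes tested.

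Psma1 averaged 82.6 FPKM over the 6 libraries, and its level in metformin replicate 1, 55.2 FPKM, lay below the other metformin libraries (103 and 91.6 FPKM) and the controls (81.4, 80.3 and 84.3 FPKM). Psma4, Psma5 and Psma6 averaged 25.1, 26.3 and 22.9 FPKM over the 6 libraries. Psma7 had 82.4, 71.8 and 89.1 FPKM in metformin oocytes, against 76.7, 102 and 63.0 FPKM in control oocytes. Both the highest and the lowest of its values were controls, and the log2 fold change was 0.04 (SE 0.175). Per kilobase of the main transcript Psma7 averaged 390 CPM over the 6 libraries, against 255 CPM for Psma1. Psma8, which takes the place of Psma7 in proteasomes of the male germ line, had 0, 5 and 3 counts in metformin libraries, against 2, 4 and 4 counts in control libraries. These counts are at or near the floor in every library.

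The lowest alpha subunit was Psma3 (ENSMUSG00000060073, chromosome 12, 70974621 to 70996347). It had 1.29, 1.37 and 1.24 FPKM in metformin oocytes, against 1.46, 1.65 and 1.61 FPKM in control oocytes. Every metformin library was below every control library. The means were 1.30 ± 0.0647 FPKM with metformin and 1.58 ± 0.0991 FPKM in controls (SD, n = 3 each), a log2 fold change of -0.27 (SE 0.201, 95% interval -0.71 to 0.17, unadjusted p = 0.209 in edgeR's test). Within the alpha ring, Psma2 exceeded Psma3 277-fold in FPKM and 171-fold in CPM per kilobase of the main transcript. In the assembled ring each of these subunits takes an equal number of places, but protein was not measured. The libraries were primed on poly(A) tails, and the part of tail length in gaps between genes was not tested.

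The low count of Psma3 is set beside copies of its sequence elsewhere in the genome. Gm13835 (chromosome 6, 31141979 to 31142663, minus strand) matched positions 230 to 894 of the Psma3 main transcript at 100% identity over 665 bases. Reads from that stretch fit both places, and the handling of such reads is not given in the sources used here. Bases 309 to 398 of the Psma3 transcript are shown with the same stretch of its copies, with capitals for bases that differ from Psma3, to show how little separates them.
Psma3: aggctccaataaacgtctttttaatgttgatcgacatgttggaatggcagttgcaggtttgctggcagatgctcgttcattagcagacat
Gm13835: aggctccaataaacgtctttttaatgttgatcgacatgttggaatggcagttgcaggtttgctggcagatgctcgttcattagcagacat
Gm4742: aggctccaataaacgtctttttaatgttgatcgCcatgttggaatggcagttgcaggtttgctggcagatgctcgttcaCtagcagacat
Gm5406: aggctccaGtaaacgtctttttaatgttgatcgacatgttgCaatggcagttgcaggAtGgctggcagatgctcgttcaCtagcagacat
Gm13835 had no difference from Psma3 in the stretch shown, Gm4742 differed at 2 bases and Gm5406 at 5.

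Most counts of this family were given to the copies. Psma3 had 80, 87 and 82 counts in metformin libraries, against 85, 89 and 102 counts in control libraries. Gm13835 had 309, 290 and 284 counts in metformin libraries, against 266, 240 and 266 counts in control libraries. On the CPM scale, Gm13835 was higher in every metformin library (28.4 to 29.3 CPM) than in every control library (27.1 to 27.9 CPM), where Psma3 was lower in every one. Of all genes tested, 2.84% had no overlap with metformin higher and 2.79% with metformin lower. The log2 fold change of Gm13835 was 0.07 (SE 0.153). The copies held 78.4% of the family's counts in metformin libraries and 74.6% in control libraries. With the counts of Psma3 and its copies summed, the log2 fold change was -0.03 (SE 0.146) in place of -0.27. The level and the fold change of Psma3 are therefore uncertain, since counts could be split among the copies in either direction.

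Copies with at least 95% identity over at least 200 bases were found for 10 members, and they held a large share of the counts for several. For Psma5 the copies held 58.7% of the family's counts in metformin libraries and 58.1% in control libraries, mainly in Gm12989 and Gm8394. For Psmb3 they held 28.1% with metformin and 29.3% in controls, and for Psmd11 17.7% with metformin and 16.8% in controls. Psmc1, Psma4, Psmb5 and Psmd2 had 6.11% to 10.0% of the family's counts in copies over all libraries. Psme2 and Psme2b are such copies of each other. Summing each member with its copies gave 0 calls among the members in edgeR's test.

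**Figure D2:**
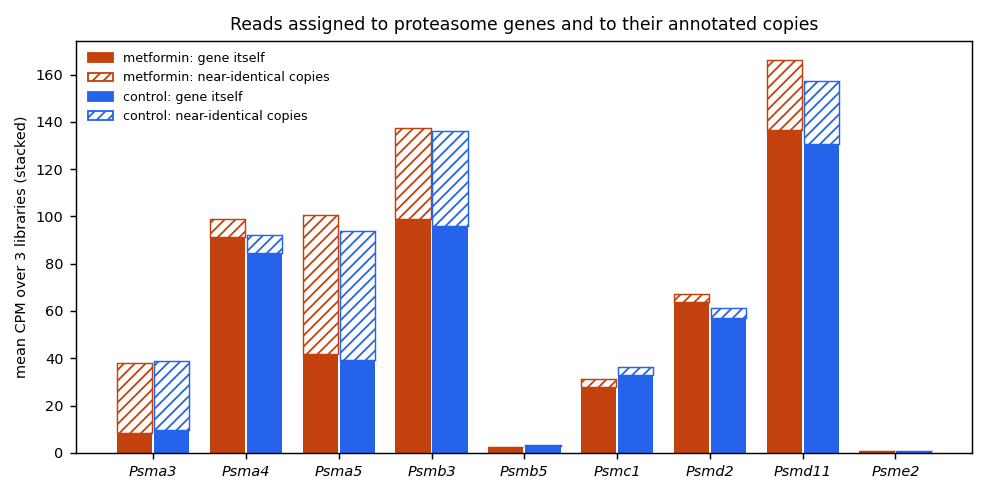
Mean CPM of each member that has near-identical copies (filled part of the bar) and of its copies (hatched part), with metformin left of control. For Psma3 and Psma5 the copies hold most of the counts, in both groups.

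In the beta rings, the structural subunit Psmb2 (chromosome 4, 126677630 to 126709714) was highest. It had 180, 228 and 226 FPKM in metformin oocytes, against 217, 165 and 205 FPKM in control oocytes, with a control as the lowest library. The means were 211 ± 27.3 FPKM with metformin and 196 ± 27.1 FPKM in controls (SD, n = 3 each), a log2 fold change of 0.13 (SE 0.170). Per kilobase of the main transcript it was also the highest beta subunit, at 389 CPM, and Psmb5 was the lowest of Psmb1 to Psmb7. The structural subunits Psmb3 and Psmb4 averaged 38.0 and 3.27 FPKM over the 6 libraries. Psmb1, another structural subunit, had the smallest unadjusted p of all members. It had 1.98, 1.51 and 1.70 FPKM in metformin oocytes, against 2.56, 1.502 and 2.48 FPKM in control oocytes, and control replicate 2 was the lowest of the 6. The log2 fold change was -0.33 (SE 0.242, 95% interval -0.86 to 0.20, unadjusted p = 0.195 in edgeR's test).

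Of the subunits with proteolytic sites, Psmb6 stood far above its partners. Psmb6, which cuts after acidic residues, had 41.0, 40.4 and 48.3 FPKM in metformin oocytes, against 41.3, 42.1 and 48.9 FPKM in control oocytes. The values interleaved, with a log2 fold change of -0.01 (SE 0.162). Psmb5, which cuts after hydrophobic residues, had 1.33, 2.07 and 1.30 FPKM in metformin oocytes, against 1.56, 1.68 and 2.60 FPKM in control oocytes. Its log2 fold change was -0.31 (SE 0.338, 95% interval -1.05 to 0.43), so a 2-fold fall lies inside the interval. Psmb7, which cuts after basic residues, had 1.08, 2.04 and 1.11 FPKM in metformin oocytes, against 2.09, 1.66 and 1.28 FPKM in control oocytes, with a log2 fold change of -0.23 (SE 0.303, 95% interval -0.89 to 0.43).

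Metformin replicates 1 and 3 were low for both Psmb5 and Psmb7, metformin replicate 2 was not, and the groups overlapped for each. Psmb6 exceeded the mean of Psmb5 and Psmb7 26.5-fold in FPKM over the 6 libraries. In CPM per kilobase of the main transcript the levels were 171 for Psmb6, 2.98 for Psmb5 and 4.72 for Psmb7. The order with Psmb6 on top was thus the same on both scales.

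The subunits that immune cells put in place of these under interferon had few counts or none. Psmb8, which replaces Psmb5, had 0 counts in each of the 6 libraries. Psmb9, which replaces Psmb6, had 0, 0 and 3 counts in metformin libraries, against 0 counts in each control library. Psmb10, which replaces Psmb7, had 0, 3 and 2 counts in metformin libraries, against 0 counts in each control library. Together the inducible subunits had 8 counts with metformin and 0 in controls, where Psmb5, Psmb6 and Psmb7 had 8464 counts in all libraries. At 0 to 3 counts per library no difference between the groups was detectable at this depth. Psmb11, the catalytic subunit known from the cortical epithelium of the thymus, had 9, 3 and 5 counts in metformin libraries, against 8, 6 and 9 counts in control libraries.

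The contrast between constitutive and inducible catalytic genes was set beside their promoters. RefSeq windows (GRCm38.p6) from 250 bases before to 50 bases after the start of transcription were available for 38 of the 45 members. Those of the pairs Psmb5 with Psmb8 and Psmb6 with Psmb9 are shown, 5′ to 3′ on the strand of the gene. The pair Psmb7 with Psmb10 is not shown, and neither gene is among the members with a match to any motif searched. A missing window and a window without a match are not told apart for that pair. Capitals mark TGACNNNGC (core of the antioxidant response element, the site of Nfe2l1 and Nfe2l2) in Psmb5 and Psmb6. They mark TTCNNNGAA (interferon-gamma activated site) in Psmb8 and CCAAT, on the opposite strand, in Psmb9.
Psmb5 (chr14:54617946-54618245, minus strand): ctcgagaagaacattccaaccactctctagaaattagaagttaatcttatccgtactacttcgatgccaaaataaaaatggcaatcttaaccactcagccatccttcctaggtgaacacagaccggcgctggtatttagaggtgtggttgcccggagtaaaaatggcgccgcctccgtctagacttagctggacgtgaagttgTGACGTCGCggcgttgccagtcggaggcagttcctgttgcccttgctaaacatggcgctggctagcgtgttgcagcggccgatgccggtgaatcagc
Psmb8 (chr17:34197945-34198244, plus strand): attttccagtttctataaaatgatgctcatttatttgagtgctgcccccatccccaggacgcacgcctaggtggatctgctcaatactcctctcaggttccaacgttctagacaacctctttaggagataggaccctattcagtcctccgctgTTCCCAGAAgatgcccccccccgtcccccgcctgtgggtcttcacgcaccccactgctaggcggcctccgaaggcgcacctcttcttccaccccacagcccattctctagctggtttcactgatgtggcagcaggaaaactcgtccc
Psmb6 (chr11:70525107-70525406, plus strand): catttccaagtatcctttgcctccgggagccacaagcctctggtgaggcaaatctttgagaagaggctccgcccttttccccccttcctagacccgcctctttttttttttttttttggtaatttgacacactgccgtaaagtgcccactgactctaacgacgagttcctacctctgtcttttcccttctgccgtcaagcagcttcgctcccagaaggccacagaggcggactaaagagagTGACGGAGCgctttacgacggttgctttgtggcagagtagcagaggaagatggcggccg
Psmb9 (chr17:34187281-34187580, minus strand): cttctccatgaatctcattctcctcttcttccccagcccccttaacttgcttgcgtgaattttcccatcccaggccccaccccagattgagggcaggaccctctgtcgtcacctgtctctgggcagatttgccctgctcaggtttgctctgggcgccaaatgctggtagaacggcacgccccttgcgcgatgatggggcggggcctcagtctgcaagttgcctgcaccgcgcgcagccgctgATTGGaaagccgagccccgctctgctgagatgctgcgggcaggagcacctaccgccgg
The capitals start at -47 from the start site in Psmb5, -9 in Psmb6, -97 in Psmb8 and -8 in Psmb9.

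Across the windows, searched on both strands, TGACNNNGC was present in 6 of the 38 members (Psmb5, Psmb6, Psmc6, Psmd9, Psmd12 and Psme4). It was in 14.6% of the members' windows and in 12.4% of all 32851 windows. CCAAT was present in 15 members, in 36.6% of their windows and 37.4% of all windows. TTCNNNGAA was present in Psmb8 and Psmd2, in 4.88% of the members' windows and 8.30% of all windows. The interferon response factor site was present in Psmb3, Psmd4, Psmd9 and Psme1, in 9.76% of the members' windows and 3.44% of all windows. A match describes letters only, and the binding of any factor was not measured.

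The ATPases of the base sat at middle levels. Psmc6 was the highest, with 22.0, 30.8 and 21.6 FPKM in metformin oocytes, against 28.9, 27.9 and 22.6 FPKM in control oocytes. Metformin libraries were both the highest and the lowest, and the log2 fold change was -0.08 (SE 0.166). Psmc3 was the lowest, with 2.09, 1.69 and 2.07 FPKM in metformin oocytes, against 2.56, 1.83 and 1.58 FPKM in control oocytes, and a log2 fold change of -0.01 (SE 0.230). Psmc2, Psmc4 and Psmc5 averaged 2.09, 4.98 and 22.6 FPKM over the 6 libraries. Per kilobase of the main transcript, Psmc6 (61.1 CPM) and Psmc3 (5.87 CPM) were again the ends of the ring.

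Psmc1 had the lowest fitted change of the ATPases. It had 15.2, 10.8 and 8.22 FPKM in metformin oocytes, against 15.5, 16.4 and 8.73 FPKM in control oocytes. Replicate 3 was low in both groups, and the log2 fold change was -0.24 (SE 0.242, 95% interval -0.77 to 0.29, unadjusted p = 0.342 in edgeR's test). Of the 6 ATPases, 1 was fitted higher with metformin and 5 lower, and their median change was -0.01. Psmc3ip, the gene matched by its letters, had 1.32, 0.548 and 0.496 FPKM in metformin oocytes, against 0.636, 1.10 and 0.746 FPKM in control oocytes.

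Among the non-ATPase subunits, the scaffold Psmd1 (chromosome 1, 86064387 to 86139151) was highest. It had 53.7, 50.3 and 53.3 FPKM in metformin oocytes, against 48.1, 48.7 and 49.0 FPKM in control oocytes. On this scale every metformin library was above every control, but the share of all genes with no overlap was counted in CPM only. In TMM-scaled CPM the values were 429, 426 and 490 with metformin, against 399, 402 and 434 in controls, and the groups overlapped. Per kilobase of the main transcript it also led the non-ATPase subunits, at 138 CPM. The log2 fold change was 0.12 (SE 0.127, 95% interval -0.16 to 0.40, unadjusted p = 0.354 in edgeR's test). Psmd2, the other large scaffold of the base, had 11.6, 8.71 and 8.59 FPKM in metformin oocytes, against 8.68, 9.40 and 7.94 FPKM in control oocytes. Its value in metformin replicate 1 was the highest, and the log2 difference of 0.16 (SE 0.151, unadjusted p = 0.313 in edgeR's test) was the highest of all members.

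The ubiquitin receptor Psmd4 averaged 9.39 FPKM, and Psmd14, the enzyme that cuts ubiquitin chains off the substrate, 5.27 FPKM over the 6 libraries. Psmd7, which pairs with Psmd14 in the lid, averaged 25.7 FPKM. Per kilobase of the main transcript the order was reversed, with Psmd4 at 47.8 CPM and Psmd7 at 39.7 CPM. The other lid subunits Psmd3, Psmd6, Psmd8, Psmd11 and Psmd12 averaged 5.73, 3.19, 6.86, 12.9 and 39.2 FPKM. Psmd13, also a lid subunit, was the exception and was not tested. It had 10, 9 and 3 counts in metformin libraries, against 24, 6 and 8 counts in control libraries, with control replicate 1 above the other libraries. The same library had the highest sum of blood and immune markers, 70.8 CPM, and the part of other cells in the Psmd13 count was not tested. The gene shares 342 of its 3377 annotated exon bases with Sirt3 on the opposite strand, and strand was not kept. Exon bases were shared with another gene for 14 members. Among them, Psmd9 shares 1849 of 7248 bases with Gm26745 and Psmb7 405 of 3421 with Nek6, both on the opposite strand.

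The chaperones that help assemble the base overlapped between the groups. Psmd5 had 3.04, 2.04 and 2.59 FPKM in metformin oocytes, against 3.31, 2.50 and 3.28 FPKM in control oocytes, with overlap and a log2 fold change of -0.24 (SE 0.200, 95% interval -0.68 to 0.20, unadjusted p = 0.257 in edgeR's test). Psmd9 had 21.7, 22.7 and 25.4 FPKM in metformin oocytes, against 23.3, 22.8 and 25.5 FPKM in control oocytes. Psmd10 had 12.03, 11.0 and 10.9 FPKM in metformin oocytes, against 11.1, 11.5 and 9.23 FPKM in control oocytes. The log2 fold changes of these genes were -0.02 (SE 0.149) for Psmd9 and 0.11 (SE 0.171) for Psmd10.

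The activators divided into a pair that was well expressed and a group near the floor. Psme4, which caps the core particle without needing ubiquitin and is known for the degradation of acetylated histones in sperm cells, had 57.5, 53.6 and 44.3 FPKM in metformin oocytes, against 53.9, 53.6 and 52.3 FPKM in control oocytes. The log2 fold change was -0.03 (SE 0.124, 95% interval -0.31 to 0.24). Psme3, a nuclear activator, had 23.5, 17.5 and 18.2 FPKM in metformin oocytes, against 19.1, 21.8 and 20.5 FPKM in control oocytes, and a log2 fold change of -0.05 (SE 0.150). Psme1, which forms the interferon-inducible activator with Psme2, had 0, 1 and 0 counts in metformin libraries, against 4, 4 and 0 counts in control libraries. Psme2 had 9, 7 and 10 counts in metformin libraries, against 9, 5 and 2 counts in control libraries. Psme2b had 1 count in each metformin library, against 0, 1 and 1 counts in control libraries. The main transcript of Psme2 matched Psme2b at 99.4% identity. That of Psme2b matched annotated transcripts of Psme2 at up to 100% identity, so their split is uncertain.

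**Figure D3:**
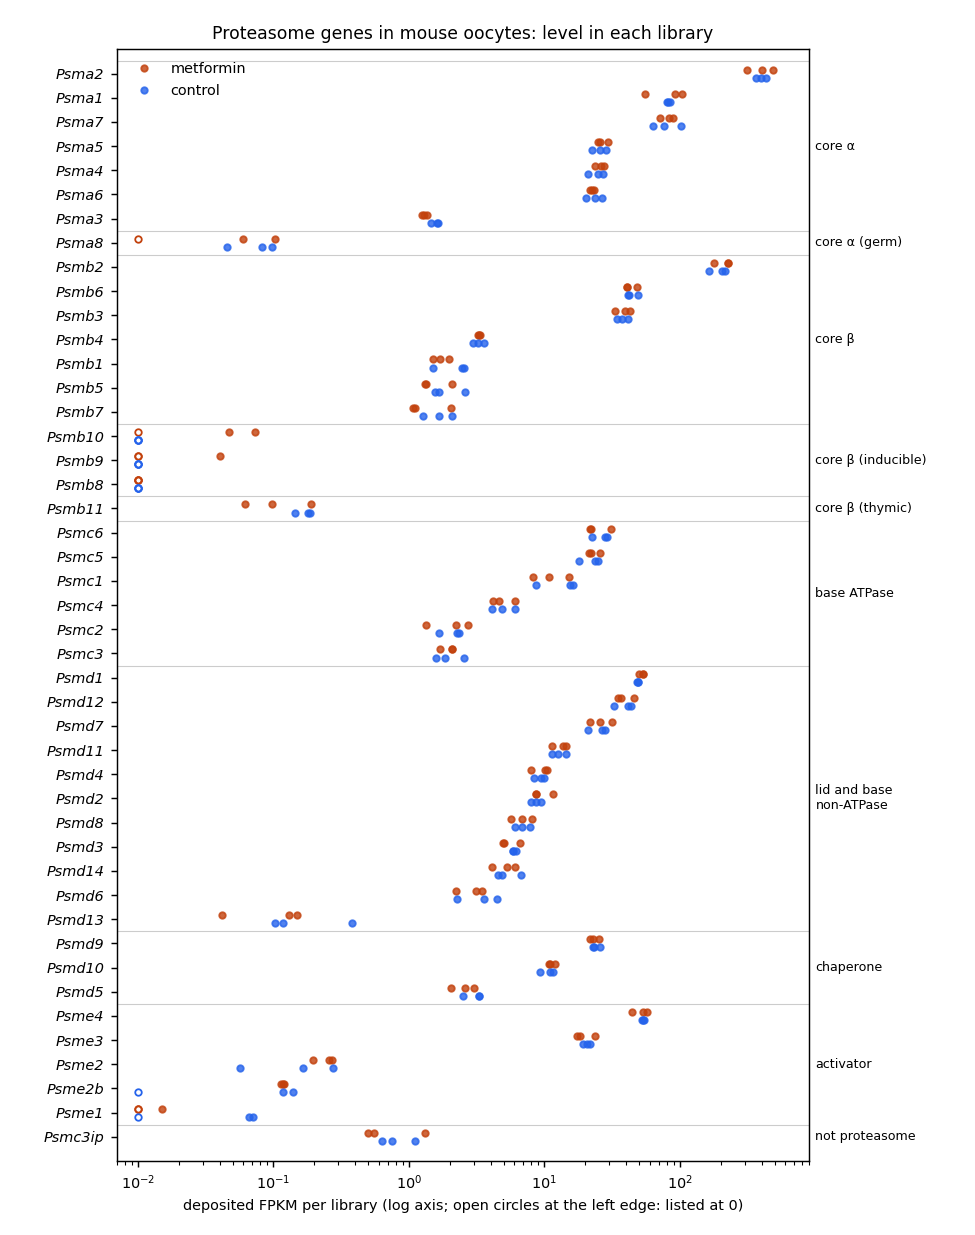
Deposited FPKM (log axis) of each member in the 3 metformin and the 3 control libraries, by class; open circles stand for 0. Psma2 and Psmb2 lead, Psma3 lies far below Psma2 in the same ring, and the inducible subunits lie at or near 0 in both groups.

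Core and regulatory particles were then compared as sums of FPKM. The core genes summed to 792, 967 and 1065 FPKM in metformin oocytes, against 907, 903 and 951 FPKM in control oocytes. Metformin replicates 1 and 3 were the extremes, and the means were 941 ± 138 FPKM with metformin and 921 ± 26.7 FPKM in controls (SD, n = 3 each), a ratio of 1.02. The regulatory genes summed to 257, 228 and 231 FPKM in metformin oocytes, against 249.5, 256 and 206 FPKM in control oocytes. The means were 239 ± 16.4 FPKM with metformin and 237 ± 27.3 FPKM in controls (SD, n = 3 each), a ratio of 1.01.

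The sum over core genes divided by the sum over regulatory genes was 3.08, 4.25 and 4.62 in metformin oocytes, against 3.64, 3.53 and 4.62 in control oocytes. The means were 3.98 ± 0.804 with metformin and 3.93 ± 0.604 in controls (SD, n = 3 each), and the groups overlapped. In CPM per kilobase of the main transcript, the ratio was 3.69 with metformin and 3.66 in controls. This excess of the core rested on few genes. Psma2 held 42.2% of the core FPKM with metformin and 43.0% in controls, and Psmb2 held 22.5% with metformin and 21.3% in controls. Without Psma2 the ratio was 2.29 with metformin and 2.23 in controls. By medians, the ratio depended on which genes were counted. The median of all 19 core genes, among them the inducible and tissue-specific ones near 0, over the median of all 17 regulatory genes was 0.380 with metformin and 0.376 in controls. Over the tested genes alone, the median mean FPKM was 25.7 for the 14 core genes and 9.275 for the 16 regulatory genes. Among the tested genes alone, the range of levels was wider in the core. The highest core gene exceeded the lowest 277-fold in FPKM, against 25.6-fold in the regulatory particle. That contrast leaves out Psmd13, a lid subunit with too few counts to be tested. With Psmd13, the 17 regulatory genes ran from 0.154 to 50.5 FPKM, beside 1.44 to 398 FPKM for the 14 tested core genes. The order of these ranges therefore depends on the filter for testing. The lowest tested core gene in FPKM was Psma3, whose level is uncertain. In CPM per kilobase of the main transcript, Psmb5 was the lowest tested core gene. On that scale the ranges over tested genes were 181-fold in the core and 23.5-fold in the regulatory particle. Psmd13, left out of them, averaged 0.516 on that scale.

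**Figure D4:**
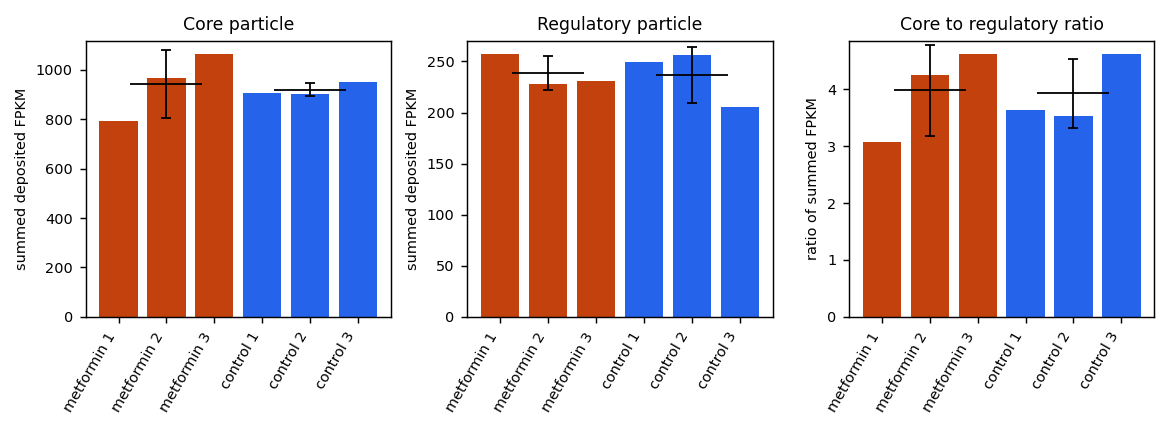
Summed FPKM of the core particle genes and of the regulatory particle genes, and the ratio of these sums, with 1 bar per library (axes start at 0) and, over each group of 3, its mean (line) and SD (whiskers). The groups overlap in each panel, and replicate 3 has a ratio of 4.62 in both.

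Single libraries set the spread of the particles. In metformin replicate 1, 0 of the 14 tested core genes lay above their own 6-library mean, and the median core gene was 0.17 below it on the log2 CPM scale. In metformin replicate 3, 10 of 14 lay above, with a median of 0.16. In the same libraries 12 and 8 of the 16 tested regulatory genes lay above their means. In control replicate 3, 9 of 14 core genes and 2 of 16 regulatory genes lay above their means, and the regulatory median was -0.17. Over all genes with a read in every library these medians lay between 0.01 and 0.02. Metformin replicates 1 and 3 were also the ends of the first principal component of all genes (28.5% of the variance), which was -30.2 in metformin replicate 1 and 34.4 in metformin replicate 3. The part of that component in the deviations of the core genes was not tested.

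**Figure D5:**
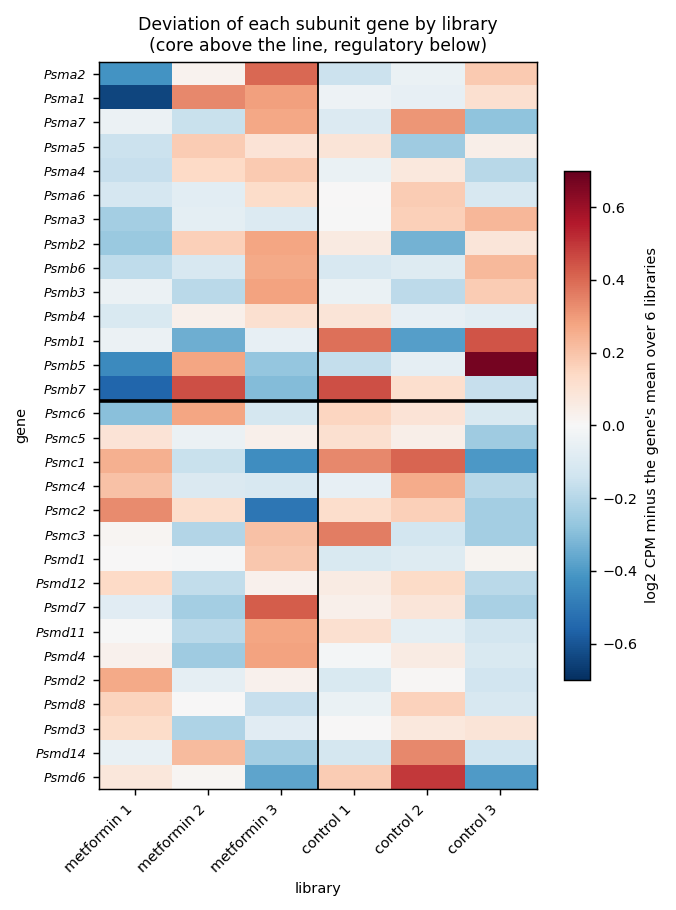
Deviation of log2 CPM from the gene's own 6-library mean, per library, for each tested gene of the core and regulatory particles. Metformin columns are left of control columns, with core genes above the line and regulatory genes below it. Core genes are lower throughout metformin replicate 1, and regulatory genes are mostly lower in control replicate 3.

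Genes that work with the proteasome under other symbols were taken from 6 lists, of which 42 genes were tested and 0 called by edgeR's test or by DESeq2 (adjusted p threshold 0.05). At an unadjusted p under 0.05 edgeR gave 1, against 1.5% of all genes tested, and DESeq2 gave 0. The gene given by edgeR was Akirin2, which brings proteasomes into the nucleus. It had 490, 511 and 561 CPM in metformin oocytes, against 447, 367 and 440 CPM in control oocytes. Every metformin library was above every control, as for 2.84% of all genes tested. The means were 520 ± 36.6 CPM with metformin and 418 ± 44.3 CPM in controls (SD, n = 3 each), a log2 difference of 0.32 (SE 0.135, unadjusted p = 0.0372 and adjusted p = 1.00 in edgeR's test). Of the 11 subunits and bound factors in its list, 4 were fitted higher and 7 lower. Zfand5, a proteasome activator, had 53.2, 41.9 and 47.7 CPM in metformin oocytes, against 43.4, 77.9 and 71.9 CPM in control oocytes. The groups overlapped through control replicate 1, and the log2 difference was -0.44 (SE 0.213, unadjusted p = 0.0642 in edgeR's test). Usp14, the deubiquitinase bound to the base, averaged 388 ± 59.5 CPM with metformin and 389 ± 25.6 CPM in controls. Sem1, the small lid subunit, averaged 93.0 ± 15.8 CPM with metformin and 89.3 ± 1.31 CPM in controls (SD, n = 3 each).

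Of the 6 dedicated assembly factors, Paaf1 was not found by symbol and the other 5 were tested, of which 4 were fitted higher and 1 lower. Their log2 fold changes had a median of 0.03. Psmg4 had 2.56, 2.55 and 5.72 CPM in metformin oocytes, against 2.31, 3.83 and 2.78 CPM in control oocytes, with a log2 fold change of 0.28 (SE 0.369). Pomp, which matures the core particle, had 33.5, 33.9 and 52.2 CPM in metformin oocytes, against 35.4, 37.4 and 42.0 CPM in control oocytes. Both genes were highest in metformin replicate 3.

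Regulators of proteasome genes were tested for 7 of 8, of which 5 were fitted higher and 2 lower. Their log2 fold changes had a median of 0.10. Nfe2l1, the transcription factor that raises proteasome genes when the protease is blocked, averaged 16.9 CPM with metformin and 15.8 CPM in controls. Ddi2, the protease that activates it, had 132, 105 and 99.3 CPM in metformin oocytes, against 112, 98.1 and 103 CPM in control oocytes. Mafg, a small partner of such factors, had 25.6, 20.2 and 23.7 CPM in metformin oocytes, against 3.25, 24.1 and 0 CPM in control oocytes. Control replicate 2 lay among the metformin libraries, and the log2 fold change of 1.36 had an SE of 1.38.

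Of the ubiquitin and ubiquitin-activating genes 5 of 6 were tested, with 3 fitted higher and 2 lower. Ubb, a polyubiquitin gene, averaged 956 ± 83.1 CPM with metformin and 990 ± 123 CPM in controls (SD, n = 3 each). Uba6, an activating enzyme, had 15.4, 16.0 and 17.5 CPM in metformin oocytes, against 15.4, 11.8 and 14.0 CPM in control oocytes, with a log2 fold change of 0.24 (SE 0.187).

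Of the shuttle and unfolding factors, which bring substrates to the proteasome, 9 of 10 were tested, with 4 fitted higher, 5 lower and a median of -0.08. Ufd1, a cofactor of the unfolding ATPase Vcp, had 12.9, 11.9 and 6.33 CPM in metformin oocytes, against 5.56, 9.25 and 4.74 CPM in control oocytes, a log2 difference of 0.67 (SE 0.323, unadjusted p = 0.0604 in edgeR's test). The groups overlapped for Ufd1. Ubqln4, a shuttle that binds ubiquitin and the proteasome, had 2.09, 2.06 and 1.23 CPM in metformin oocytes, against 2.10, 3.27 and 2.27 CPM in control oocytes, a log2 difference of -0.50 (SE 0.343, unadjusted p = 0.174 in edgeR's test). Nploc4, the partner of Ufd1, had 6.16, 5.98 and 4.90 CPM in metformin oocytes, against 6.39, 6.99 and 6.91 CPM in control oocytes, a log2 difference of -0.25 (SE 0.221). For Ubqln4 and Nploc4 every metformin library was below every control in CPM, as for 2.79% of all genes tested. At 12 to 29 counts of Ubqln4 per library, the nearest libraries of the groups were 22 counts in metformin replicate 1 and 20 counts in control replicate 1.

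Of the 12 interferon and antigen presentation genes 5 had enough counts to be tested, with 3 fitted higher and 2 lower. Irf1, a factor that drives the inducible subunits in other cells, had 19.7, 22.9 and 11.6 CPM in metformin oocytes, against 22.7, 23.0 and 17.8 CPM in control oocytes. H2-K1, a class I heavy chain, had 4.27, 3.23 and 3.68 CPM in metformin oocytes, against 4.30, 2.93 and 2.27 CPM in control oocytes, with a log2 fold change of 0.23 (SE 0.300) and overlap. B2m, the light chain of class I molecules, averaged 44.9 CPM with metformin and 44.1 CPM in controls, in the same libraries where Psmb8 had 0 counts.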

How the data were processed

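The 6 RNA-seq libraries (3 metformin, 3 control) were made, per the labels' protocols, with SMART-Seq HT chemistry, which primes on poly(A) tails and keeps neither strand nor molecular identifiers. CASAVA 1.8, TopHat2 2.0.6 and the mm10 build are listed in the submitters' processing notes; the counting program, the annotation release and the handling of multiply mapped reads are unstated.

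The authors deposited raw counts per gene, which were used as they stand for every test. The authors also deposited FPKM values, which were used for levels only. Symbols and coordinates came from GENCODE M21 on GRCm38, and 55227 of 55487 identifiers matched. Groups were compared by edgeR's robust quasi-likelihood test (version 4.0.16 in R 4.3.3) after TMM scaling. The model held group alone, genes passed filterByExpr with a minimum count of 10, and p-values were adjusted by Benjamini-Hochberg over all 12793 genes, at a threshold of 0.05. An SE is the size of the log2 fold change divided by the square root of F, and intervals are 95%. CPM values use TMM-scaled library sizes. The core particle is Psma and Psmb, the regulatory particle Psmc and Psmd without Psmd5, Psmd9, Psmd10 and Psmc3ip.

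Copies were sought with blastn 2.17.0 at 95% identity over 200 bases in genes that do not overlap the member. The main transcript is the annotated principal one. Promoter windows are RefSeq's. Alternatives were DESeq2 1.42.0 with its size factors, no filter, a replicate block, each library left out, and, chosen after seeing the data, copies summed, levels per kilobase of main transcript and sums without Psma2. The scripts were tested on simulated counts.

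Members and lists were chosen with earlier results of these data known. Genes given in every library were the 6 members with the smallest unadjusted p, the highest and lowest of each class by FPKM, the inducible and tissue-specific subunits with those they replace, the activators and the chaperones. Of each list of associated genes, the 2 with the smallest unadjusted p were given; Usp14, Sem1, Nfe2l1, B2m and Nploc4 were added after their values were seen. Counting floors cover counting error only, since PCR copies are not independent molecules. Without a spike-in, total RNA per oocyte was not measured.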

Additional observations from a re-analysis of the deposited data

How the results depend on the processing

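The count of members called was 0 under all 13 alternatives, with 36 to 44 members tested, and the count of associated genes called was also 0. At an unadjusted p under 0.05 in edgeR's test 1 member passed without metformin replicate 1 and 1 without control replicate 2. Of the associated genes, 1 passed at that level in the main test and 0 without metformin replicate 2. The count was 3 with no filter, 2 with the replicate block and 2 without control replicate 2. The core to regulatory ratio depended on how the genes were combined: with the median FPKM of all members, inducible ones included, it was 0.380 with metformin and 0.376 in controls, and without Psma2 2.29 with metformin and 2.23 in controls. No named gene crossed the threshold, but 13 of 30 changed sign under some alternative. With the replicate number as a block, Psmc3 was at 0.0035 (log2), 0 members were called, and 7 genes passed in all, against 5. Deviations of same-numbered libraries correlated at 0.14, 0.04 and 0.20, and every library correlated best with its own number, a hint from the data and not from the design, so the numbers were not taken to pair the samples. Leaving out 1 library gave log2 fold changes of -0.18 to 0.22 for Psma2, -0.10 to 0.22 for Psma7, -0.16 to 0.11 for Psmb6, -0.12 to 0.19 for Psmc3, -0.26 to 0.039 for Psmc6, -0.15 to 0.069 for Psmd9, -0.14 to 0.034 for Psme3 and -0.067 to 0.019 for Psme4. It gave -0.22 to 0.50 for Psmg4, -0.19 to 0.17 for Pomp, -0.032 to 0.18 for Ddi2, -0.13 to 0.054 for Ubb and -0.43 to 0.0090 for Irf1. Others kept their sign without any 1 library but moved by over 1.5 times: Psmb5 (-0.56 to -0.0001), Psmb7 (-0.58 to -0.033), Psmb1 (-0.55 to -0.19), Psmb2 (0.0043 to 0.27), Psmc1 (-0.45 to -0.094), Psmd1 (0.054 to 0.16), Psmd2 (0.058 to 0.23), Psmd5 (-0.37 to -0.099), Psmd10 (0.049 to 0.15), Zfand5 (-0.66 to -0.28), Ubqln4 (-0.62 to -0.28), Uba6 (0.14 to 0.33), H2-K1 (0.041 to 0.52) and Mafg (0.76 to 3.83). The cause of these changes was not tested.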

Other observations

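Pseudogenes with a proteasome symbol were counted apart from the members. Psmb7-ps2 had 6, 4 and 2 counts in metformin libraries, against 5, 5 and 1 counts in control libraries. Psmb6-ps2 had 4, 3 and 2 counts in metformin libraries, against 1, 2 and 1 counts in control libraries. Psmb6-ps had 3 counts over all libraries and Psmb5-ps had 0. These counts are small beside those of the parent genes.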
